A study of Mus musculus with 4 samples.

Results

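Mitotic granule cell precursors are described here in single-cell RNA sequencing of the embryonic mouse cerebellum, as 1967 cells of 12546 that passed quality limits. Kept barcodes had 500 genes or more, 1000 or more unique molecular identifiers (UMIs, each standing for 1 captured RNA molecule) and no more than 10% of their UMIs from mitochondrial genes. A kept cell was taken as a mitotic granule cell precursor when 6 mitotic genes (Ube2c, Cdc20, Ccnb1, Ccnb2, Cenpa and Cenpf) together had at least 3 UMIs, when Pax6, Atoh1 and Barhl1 together had at least 1 UMI, and when Meis2 did not exceed Pax6. The last 2 conditions are called the granule gate below. All libraries were made at E14.5, in mid-gestation, from cells sorted for the red fluorescent protein tdTomato. Controls carried Atoh1-Cre with the Cre-dependent reporter (Atoh1-Cre/+ and R26LSL-tdT/+). The En1/2 CKO embryos carried the same driver and reporter with both engrailed genes flanked by lox sites (En1lox/lox and En2lox/lox), so both groups express Cre and tdTomato. There were 2 libraries per group, and each was made from pooled animals. Deletion and labelling are therefore limited to cells in which the Atoh1 driver has been active, and a library averages over embryos. The labels speak of replicate experiments, and p-values below measure the spread between these libraries. The gate took 369 and 189 cells from control replicates 1 and 2, and 531 and 878 cells from En1/2 CKO replicates 1 and 2.

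Granule cell precursors arise from the rhombic lip under the transcription factor Atoh1, spread over the cerebellar surface and go on dividing there before they turn into granule neurons. Entry into mitosis is driven by Cdk1 with B-type cyclins, chromosomes are then condensed and attached through kinetochores to a spindle, and the anaphase promoting complex, started by Cdc20 and supplied with ubiquitin by Ube2c, destroys the cyclins to end the division. Genes for these steps are transcribed late in the cell cycle, in G2 and M phase, so their transcripts mark cells close to division.

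In every library the mitotic cells were deeper than granule-gated S phase and non-dividing cells, and depth went with genotype. Library totals ran from 14998150 to 33709450 UMIs, with 2007 to 3931 kept cells of 4983 to 7083 barcodes. The median number of UMIs per mitotic cell was 9967 in control replicate 1, 3497 in control replicate 2, 18297 in En1/2 CKO replicate 1 and 14400 in En1/2 CKO replicate 2, while granule-gated non-dividing cells lay between 1855 and 2243.5 in all 4. Both En1/2 CKO libraries were thus deeper than both controls among the mitotic cells. Median mitochondrial shares of the mitotic cells were 2.89% and 4.75% in the controls, against 2.34% and 1.94% in the En1/2 CKO. Because the gate is set in UMIs, a deeper cell passes it more readily, and the part of depth in the results was not tested beyond the thinned and intact-cell values given beside them. Xist, the RNA that coats the inactive X chromosome of females, stood at 0.401 CPM in the mitotic cells of control replicate 1 against 2188 CPM, 1287 CPM and 411 CPM in the other libraries, in the order control replicate 2, En1/2 CKO replicates 1 and 2. CPM is the number of UMIs of a gene per 1000000 UMIs summed over the cells in question. No barcode of a mitotic cell was shared between libraries, against 18 of 12528 distinct barcodes among all kept cells. Doublets were left in; a doublet score marked 20, 11, 15 and 67 of the mitotic cells of control replicates 1 and 2 and En1/2 CKO replicates 1 and 2, whose removal is among the alternatives.

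**Figure D1:**
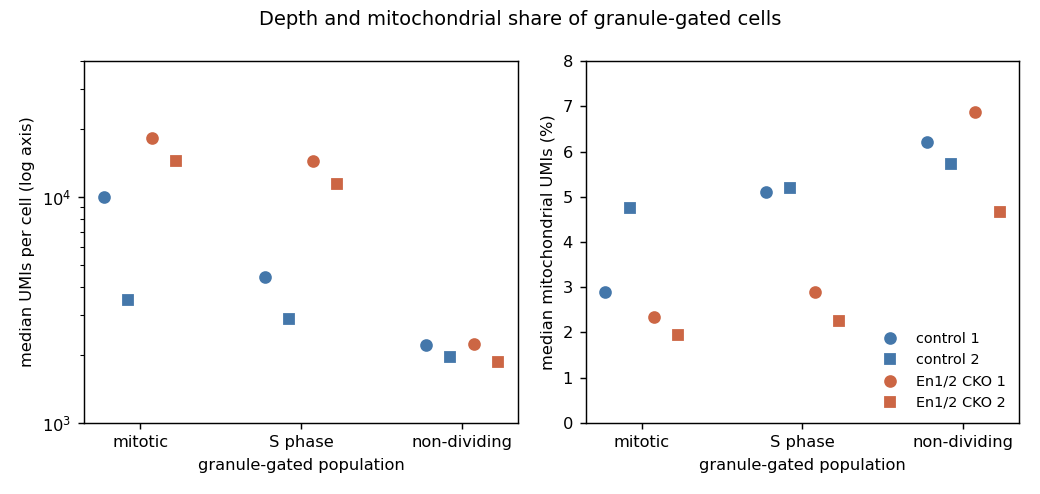
Median UMIs per cell on a log axis (left) and median mitochondrial share in percent (right) of 3 granule-gated populations, with 1 point for each library. Mitotic cells ranged from 3497 to 18297 UMIs, with both En1/2 CKO libraries above both controls, and non-dividing cells from 1855 to 2243.5.

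The genes that set the gate were high by construction, and their levels are given as a description. Ube2c, the ubiquitin-conjugating enzyme of the anaphase promoting complex, stood at 834 CPM and 689.9 CPM in the mitotic cells of the controls and at 863 CPM and 608 CPM in those of the En1/2 CKO. Cdc20, its activator, stood at 305 CPM and 315 CPM in the controls and at 231 CPM and 217 CPM in the En1/2 CKO. Cenpf, a large kinetochore protein, was the most abundant of the 6, at 939 CPM, 988 CPM, 820 CPM and 871 CPM in the same order of libraries. Across libraries the 6 genes averaged log2 ratios of 3.94 to 4.13 over all other kept cells. The mitotic sum of a cell ranged from 3 to 298 UMIs, with medians of 11, 7, 25 and 16 UMIs in control replicates 1 and 2 and En1/2 CKO replicates 1 and 2. Scaled to 10000 UMIs of the cell the order turned round, with medians of 21.7 and 24.3 in the controls, against 18.3 and 16.7 in the En1/2 CKO. Between 14.8% and 47.5% of the mitotic cells of a library had a UMI of all 6 genes, and between 2.07% and 5.29% passed on UMIs of 1 gene alone.

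Cells on either side of the threshold of 3 UMIs differed by degrees. In control replicate 1, Mki67, the Ki-67 protein that coats mitotic chromosomes, stood at 63.1 CPM in the 165 granule-gated cells with a mitotic sum of 2, at 124 CPM in the 56 cells with 3 and at 323 CPM in the 40 cells with 4. In En1/2 CKO replicate 1, whose cells were deeper, Mki67 stood at 36.0 CPM in the 83 cells with a sum of 2, at 52.9 CPM in the 52 cells with 3 and at 80.8 CPM in the 31 cells with 4. At a sum of 3, Mki67 stood at 445 CPM in the 28 cells of control replicate 2 and at 138 CPM in the 93 cells of En1/2 CKO replicate 2, so the level at the threshold overlapped between the groups.

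Promoters of 3 of these genes and of Cdk1 are shown because the transcripts were high together in these cells. Late cell cycle promoters are known for CCAAT boxes, bound by the factor NF-Y, and for the cell cycle genes homology region (CHR), bound by the DREAM and MuvB complexes. The windows are RefSeq promoters of the build GRCm38.p6, from 250 bases before to 50 bases after the annotated start. The sequences below, each of 180 bases and written 5′ to 3′ on the strand of the gene, end at the RefSeq or the GENCODE M21 start, whichever lies further upstream. Capitals mark CCAAT or its reverse complement ATTGG, and the CHR-like hexamers TTTGAA (reverse complement TTCAAA) and TTTAAA, which reads the same on both strands; no marked matches overlap in these 4. Cdc20 is on the minus strand at chr4:118437353-118437532, Ccnb2 on the minus strand at chr9:70421555-70421734, Cenpf on the minus strand at chr1:189688087-189688266, and Cdk1, a kinase gene outside the gate, on the minus strand at chr10:69352939-69353118.
Cdc20: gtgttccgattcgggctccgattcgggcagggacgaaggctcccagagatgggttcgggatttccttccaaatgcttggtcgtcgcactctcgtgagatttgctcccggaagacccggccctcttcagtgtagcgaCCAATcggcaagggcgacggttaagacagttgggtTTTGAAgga
Ccnb2: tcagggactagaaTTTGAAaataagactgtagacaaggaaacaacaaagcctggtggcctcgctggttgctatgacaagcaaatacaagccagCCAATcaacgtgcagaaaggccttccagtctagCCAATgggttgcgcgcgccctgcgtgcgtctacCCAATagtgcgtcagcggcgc
Cenpf: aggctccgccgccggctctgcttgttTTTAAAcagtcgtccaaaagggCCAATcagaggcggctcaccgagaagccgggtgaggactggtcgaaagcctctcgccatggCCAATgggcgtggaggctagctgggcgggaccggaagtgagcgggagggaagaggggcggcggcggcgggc
Cdk1: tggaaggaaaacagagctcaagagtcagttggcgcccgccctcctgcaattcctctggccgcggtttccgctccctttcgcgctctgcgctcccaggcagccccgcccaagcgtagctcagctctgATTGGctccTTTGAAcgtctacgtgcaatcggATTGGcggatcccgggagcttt
All 6 gate genes held a CCAAT box and a CHR-like hexamer within the 300-base window, which together occur in 10.7% of all 32851 windows. In Cdc20 the hexamer began 18 bases before the RefSeq start and a CCAAT box began 53 bases before it. Cdk1 held hexamers beginning 71 and 15 bases before its start, with CCAAT boxes 208, 80 and 48 bases before it. The box furthest from the start begins before the printed stretch, and the hexamer nearest to the start lies past its end. The hexamers printed for Ccnb2 and Cenpf begin 167 and 154 bases before the start. Both genes also held TTTGAA beginning 5 and 3 bases after it, past the printed stretch. In Cdc20 a CCAAT box beginning 8 bases before the start also lies past the printed stretch. Of the 80 genes of 5 lists for the mitotic machinery (below), 68 had at least 1 window, and 38 of their 78 windows (48.7%) held both elements. CHR-like hexamers were in 64.1% of those windows and in 27.6% of all windows, and CCAAT boxes in 66.7% and 37.4%. Among 26 windows of S phase genes, 23.1% held a CHR-like hexamer and 61.5% a CCAAT box. A match is a run of letters in a window and not a measured binding site.

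Beyond the gate genes, the mitotic cells of every library were high in transcripts of the machinery of cell division. Of 9143 genes with a mean of at least 10 CPM, 309 were at least 2-fold above the other kept cells in all 4 libraries (3.38%) and 307 at least 2-fold below (3.36%); these counts come from the contrast that chose the cells and carry no test. The 15 genes outside the rule with the largest smallest ratio over the 4 libraries were Spc25, Nusap1, Hmmr, Aurkb, Kif2c, Ccna2, Hist1h1b, Nuf2, Mki67, Cdca3, Pbk, Kif4, Birc5, Hist1h2ap and Cenpe. Spc25, a subunit of the Ndc80 complex that joins kinetochores to microtubules, stood at 219 CPM, 232 CPM, 203 CPM and 255 CPM in the mitotic cells of control replicates 1 and 2 and En1/2 CKO replicates 1 and 2, against 16.9 CPM, 14.9 CPM, 18.9 CPM and 12.9 CPM in the other kept cells. Its log2 ratio was at least 3.35 in every library. Nusap1, which bundles spindle microtubules near chromosomes, reached 582 CPM, 554 CPM, 374 CPM and 674 CPM in the mitotic cells, and its lowest level was in En1/2 CKO replicate 1. Hist1h2ap, a replication-dependent H2A gene with near-identical copies among which reads may be split, varied more between libraries of the same group, with 899.8 CPM and 360.1 CPM in the controls, against 541 CPM and 863 CPM in the En1/2 CKO.

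The 5 genes lowest in the mitotic cells against the other kept cells are genes known from neurons. Snhg11, a long non-coding RNA, stood at 12.98 CPM, 27.0 CPM, 7.07 CPM and 8.36 CPM in the mitotic cells and at 87.9 to 297 CPM in the other kept cells. Cacna2d1, a calcium channel subunit, Robo3, the receptor that lets axons cross the midline, Meg3, an imprinted non-coding RNA, and Dner, a neuronal transmembrane protein, followed with mean log2 ratios of -2.93, -2.81, -2.60 and -2.38. Levels of these 4 in the mitotic cells were 11.7 to 274 CPM, highest in control replicate 2 for Cacna2d1, Meg3 and Dner and in En1/2 CKO replicate 1 for Robo3.

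**Figure D2:**
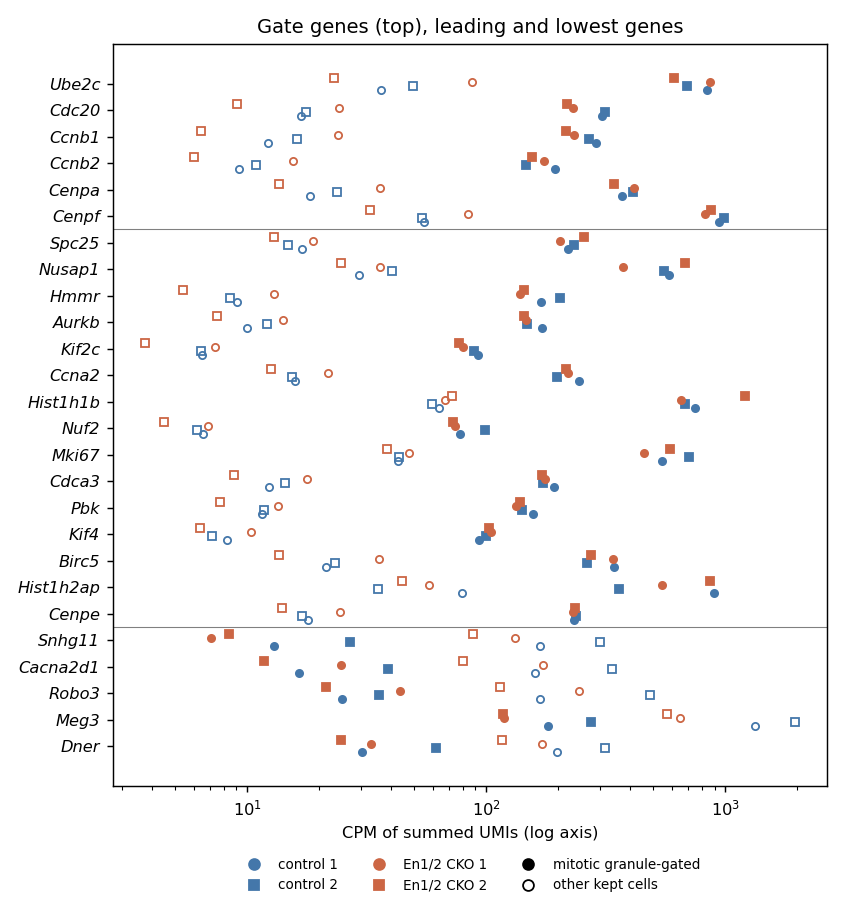
CPM of summed UMIs on a log axis for the 6 gate genes, the 15 leading genes and the 5 lowest genes (separated by lines), with filled points for mitotic granule-gated cells and open points for all other kept cells of each library. Filled and open points do not overlap for any of these genes; Spc25 lies at 203 to 255 CPM in mitotic cells and at 12.9 to 18.9 CPM in the others.

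By role, kinases are given first; genes named beyond the most abundant of each list were chosen after their values were seen. All 14 mitotic kinases and chromosomal passenger proteins were at least 2-fold above the other kept cells in all 4 libraries, with a median log2 ratio of 3.52, where the median over all 9143 genes was -0.08. Cdk1, the master kinase of mitotic entry, stood at 303 CPM, 274 CPM, 313 CPM and 247 CPM, in the order control replicates 1 and 2 and En1/2 CKO replicates 1 and 2. Plk1, which acts at centrosomes and kinetochores, stood at 104 CPM, 110 CPM, 93.4 CPM and 94.6 CPM in the same order. Among passenger proteins, which guide Aurora B to centromeres and the midzone, Birc5 (survivin) ranged from 264 to 341 CPM and Cdca8 (borealin) from 307 to 385 CPM. The groups overlapped for Cdk1, Birc5 and Cdca8, and both En1/2 CKO libraries were slightly below both controls for Plk1.

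All 23 genes listed under the spindle, its motors and cytokinesis passed the same 2-fold limit, with a median log2 ratio of 3.35. All 15 kinetochore and checkpoint genes did too, with a median of 3.07. Tpx2, which nucleates spindle microtubules, was at 298 to 322 CPM in the mitotic cells of the 4 libraries and at 14.3 to 34.4 CPM in the other kept cells. Prc1, the bundling protein of the midzone, was at 257 to 343 CPM. Arl6ip1, which is not itself a spindle protein, was the most abundant of the spindle list, at 752.5 to 1236 CPM. Its mean log2 ratio of 1.67 was the smallest of that list, with 216 to 368 CPM in the other kept cells. Cenpe, the kinetochore motor, varied little between libraries, at 233 CPM, 238 CPM, 230.3 CPM and 234.9 CPM. Bub3, a checkpoint protein also used outside mitosis, had the smallest mean log2 ratio of the kinetochore list, 1.38.

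Of 17 genes for chromosome condensation and chromatin, 14 passed the 2-fold limit, and Top2a (topoisomerase II, which untangles sister chromatids) and Mki67 had mean log2 ratios of 3.68 and 3.69. Top2a stood at 1220.5 CPM and 1571 CPM in the controls and at 747 CPM and 1325 CPM in the En1/2 CKO, so the groups overlapped. The 3 that did not pass in all libraries were Cbx5 (HP1 alpha), Lmnb2 (lamin B2) and Hmgb3, with mean log2 ratios of 0.69, 0.79 and 1.07. For the anaphase promoting complex, 5 of 11 genes passed, with a median log2 ratio of 0.95. Those named as substrates, inhibitors or partners stood high, with mean log2 ratios of 3.68 for Cdca3, 3.01 for Espl1 (separase) and 2.77 for Pttg1 (securin), whereas the core subunits Anapc5 and Cdc16 had 0.23 and 0.29.

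Of 28 S phase genes, 13 passed the 2-fold limit with a median log2 ratio of 1.25, and of 19 measured G1 cyclins, kinases and inhibitors, 8 did, with a median of 0.66. Rrm2, the regulated subunit of ribonucleotide reductase, stood at 201 CPM, 281 CPM, 222 CPM and 158 CPM. The helicase gene Mcm6 had a mean log2 ratio of 1.23 over the other kept cells. Ccna2, the cyclin of S and G2 phase, was at 197 to 244 CPM with a mean log2 ratio of 3.68, and Ccnd2, a D-type cyclin of growing precursors, at 336 to 1187 CPM with 0.49. Inhibitors of the cycle ran in both directions: Cdkn3 had a mean log2 ratio of 3.13 and Cdkn2c of 2.98, whereas Cdkn1a (p21) had -1.13 and Cdkn1c (p57) -0.76. Among listed transcription regulators of the cell cycle, which include E2F and NF-Y genes, 4 of 15 measured passed. Foxm1 with 2.98 and E2f8 with 2.44 led, and the NF-Y subunits Nfya, Nfyb and Nfyc had 0.04, 0.30 and 0.47.

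A narrower comparison is with the 2144 granule-gated cells in S phase, which had at least 3 UMIs over 15 replication genes and a mitotic sum under 3. In all 4 libraries, 211 of the 9143 genes (2.31%) were at least 2-fold higher in the mitotic cells and 7 (0.0766%) at least 2-fold lower. None of the 28 S phase genes was 2-fold apart in all 4 libraries, and their median log2 ratio was 0.37. When every cell was thinned to 2000 UMIs, at least 3 UMIs of the 15 replication genes remained in 51.8% and 44.5% of the mitotic cells of the controls and in 43.7% and 44.9% of those of the En1/2 CKO. The same share among non-mitotic cells outside the granule gate was 6.87%, 3.99%, 2.10% and 8.13% in the order control replicates 1 and 2 and En1/2 CKO replicates 1 and 2. Before thinning it was 82.7%, 59.3%, 90.4% and 87.9% in the mitotic cells, which follows their depth.

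**Figure D3:**
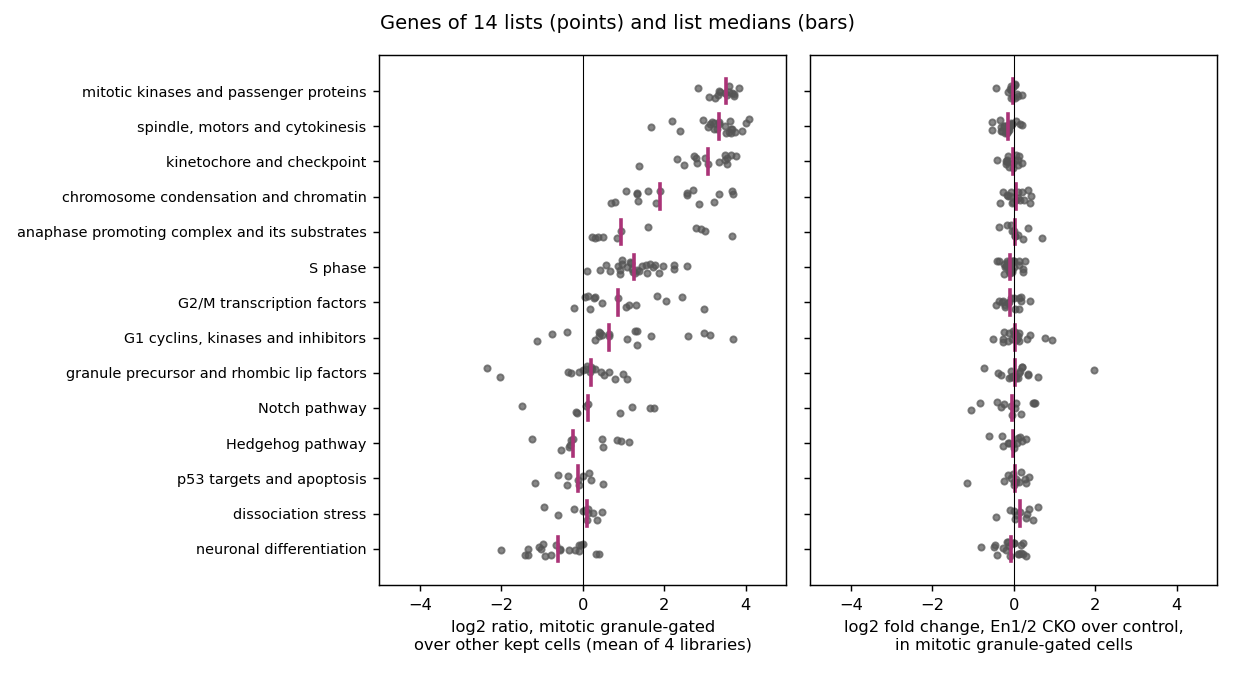
Left, mean log2 ratio over 4 libraries of mitotic granule-gated cells over other kept cells for each gene of 14 lists (points, genes of at least 10 CPM), with list medians as bars. Right, the log2 fold change of En1/2 CKO over control in the mitotic cells for the tested genes of the same lists. Medians fall from 3.52 for kinases to -0.61 for neuronal genes on the left, and stay between -0.14 and 0.15 on the right.

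The label of granule cell precursors was checked on markers that the gate did not use. Zic1, a zinc finger factor of the granule lineage, stood at 889.9 CPM, 830.4 CPM, 712 CPM and 1046 CPM in control replicates 1 and 2 and En1/2 CKO replicates 1 and 2, and after thinning it was seen in 74.3% to 85.7% of the mitotic cells of a library. Its share in the non-mitotic cells outside the gate was 52.1% to 70.3%. Mfap4 was seen in 40.3% to 52.9% of the thinned mitotic cells against 13.3% to 22.4% outside the gate. Atoh1, 1 of the 3 gate genes and so a description, was at 171 CPM and 109 CPM in the controls and at 216 CPM and 186 CPM in the En1/2 CKO. Pax6 was found in 96.2% to 98.0% of the mitotic cells, so that few entered the gate by Atoh1 or Barhl1 alone. No granule precursor or rhombic lip factor passed the 2-fold limit upward, 2 of 18 measured (Lhx2 and Lhx9) passed it downward, and the median log2 ratio was 0.19. Olig3 and Wls, both genes of the rhombic lip, had the largest mean log2 ratios of that list, 1.00 and 1.08.

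By the list median, neuronal genes were lower in the mitotic cells, though not absent. Of 20 genes of neuronal differentiation, 4 were at least 2-fold below the other kept cells in all 4 libraries and the median log2 ratio was -0.61. Mapt (tau) had a mean log2 ratio of -2.01, Cntn2 (the adhesion protein TAG-1) -1.43, Dcx (doublecortin) -1.35 and Tubb3 (neuronal tubulin) -1.33. Tubb3 still stood at 675 CPM, 1400.3 CPM, 1142 CPM and 581 CPM, the lowest value being that of En1/2 CKO replicate 2. Neurod1, a driver of granule cell differentiation, had a mean log2 ratio of -0.10, and after thinning it was seen in 30.3% to 41.8% of the mitotic cells. Its share in the non-mitotic cells outside the granule gate was 13.6% to 26.6%, lower in every library. A mitotic cell that carries these transcripts and one whose droplet took up free RNA cannot be told apart here.

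In the Notch pathway, the receptors Notch1 and Notch2 had mean log2 ratios over the other kept cells of 1.65 and 1.74, the ligands Jag1 and Dll1 1.21 and 0.91, and Dll3, a ligand that acts inside the cell, -1.50; 2 of 9 measured genes passed the 2-fold limit upward. In the Hedgehog pathway, which drives granule precursor division later in development, none of 11 measured genes passed it in either direction. Gli3 (the repressor) had 1.14, the co-receptors Gas1 and Boc 0.95 and 0.49, the receptor and target Ptch1 -0.23. Gli1, the usual readout of the pathway, was seen after thinning in 1 of 340 mitotic cells of control replicate 1 (0.294%) and in none of the other libraries, whose 155, 510 and 831 thinned mitotic cells allow shares of up to 1.94%, 0.588% and 0.361% with a UMI at that depth. Before thinning, Gli1 was seen in 1.36% of the mitotic cells of control replicate 1, in none of control replicate 2 and in 0.753% and 0.911% of those of En1/2 CKO replicates 1 and 2.

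Markers of other cell types differed between lists and libraries. Summed over 10 genes of the GABAergic lineage, the mitotic cells had 32.9 CPM and 46.5 CPM in the controls, against 11.1 CPM and 17.5 CPM in the En1/2 CKO before TMM scaling, of which Lhx1 gave 22.1 CPM, 26.0 CPM, 3.68 CPM and 10.98 CPM. Their defining gene Ptf1a had no UMI in the mitotic cells of either control, which allows up to 0.608 CPM and 3.24 CPM (3 UMIs per library). Before thinning, Ptf1a was seen in 0.188% and 0.228% of the mitotic cells of En1/2 CKO replicates 1 and 2. Gad2 stood at 0.398 to 2.16 CPM. The 10 markers of vascular and meningeal cells summed to 2.69 to 12.5 CPM and 8 of microglia to 0.291 to 4.33 CPM, with Aif1 at 0 in all 4 libraries. Markers of ventricular progenitors or glia summed to 1161 to 2037 CPM, mostly Vim (904 to 1673 CPM), which dividing precursors also express, and Sox2, another of them, was at 31.4 to 54.2 CPM. This sum was above that of the other kept cells in all 4 libraries (976 CPM, 547 CPM, 1278 CPM and 1086 CPM in the same order), and the list's median log2 ratio was 0.74, against 0.19 for granule precursor and rhombic lip factors. The 189 cells that passed the mitotic sum but not the granule gate (41, 74, 49 and 25 per library) had 1677 to 2339 CPM over 11 markers of excitatory nuclei neurons, against 555 to 903 CPM in the mitotic granule-gated cells; Meis2, which the gate uses, is 1 of the 11. The 9 erythroid markers summed to 2904 CPM and 461 CPM in the controls and to 13.8 CPM and 2.11 CPM in the En1/2 CKO. In the other kept cells they summed to 454 CPM and 5235 CPM in the controls and to 3951 CPM and 4.14 CPM in the En1/2 CKO. In control replicate 1 a single mitotic cell held 14226 of the 14291 haemoglobin UMIs.

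The first question the design asks of these cells is whether loss of the engrailed genes changed their share. Among all kept cells they made up 12.7% (95% Wilson interval 11.5% to 13.9%) and 4.81% (4.18% to 5.52%) in the controls, against 26.5% (24.6% to 28.4%) and 23.7% (22.4% to 25.1%) in the En1/2 CKO. These intervals, like all others here, cover counting error only. The group means were 8.74% ± 5.56 and 25.1% ± 1.92 (SD, n = 2 libraries each), and the groups did not overlap. Among granule-gated cells only, a denominator that leaves out the neurons of other kinds, the shares were 17.6% and 14.8% in the controls against 39.5% and 27.7% in the En1/2 CKO, or 16.2% ± 1.95 and 33.6% ± 8.30 (SD, n = 2). Again both En1/2 CKO libraries were above both controls. A 2-sided exact permutation test gave p = 0.33 for either share, which is the smallest value that 2 against 2 libraries allow, so the design cannot pass a threshold of 0.05.

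The excess shrank when depth was set equal. With every cell of at least 2000 UMIs thinned to 2000 UMIs and gated again, the share among granule-gated cells was 14.7% and 14.2% in the controls, against 26.5% and 20.2% in the En1/2 CKO, a difference of means of 8.91 percentage points against 17.4 before thinning. Without En1/2 CKO replicate 1 these differences were 5.77 and 11.5 points. For having too few UMIs, 940, 1786, 422 and 1099 kept cells of control replicates 1 and 2 and En1/2 CKO replicates 1 and 2 were left out. Another random thinning to 2000 UMIs gave 14.6% and 16.7% in the controls, against 27.2% and 18.6% in the En1/2 CKO. The difference of means was then 7.28 points, and it was 7.80 points with thinning to 3000 UMIs. The exact permutation p was again 0.33, and with 3 shares tested the Benjamini-Hochberg value is the same. Intact cells were defined by 4000 UMIs or more and a mitochondrial share of 5% or less. Among granule-gated intact cells the shares were 43.0% and 36.0% in the controls, against 57.5% and 41.0% in the En1/2 CKO. There the groups overlapped, and the exact permutation p was 0.667. Among all kept intact cells the shares were 38.0% and 19.1% against 46.5% and 39.0%. These did not overlap (exact permutation p = 0.33). Shares of cells in a sorted suspension also move with the losses of every other cell type and with the sort itself, which cannot be told apart from a change in division here.

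**Figure D4:**
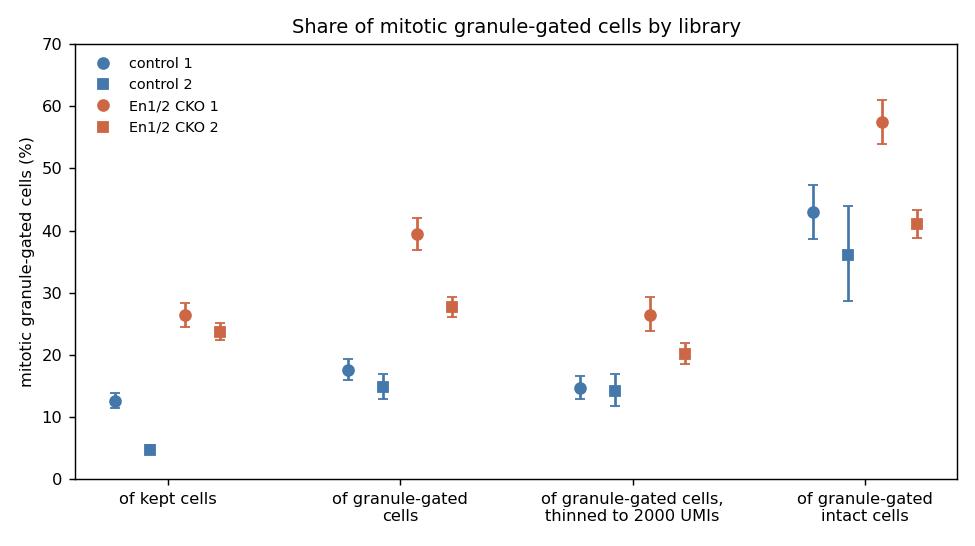
Percent of mitotic granule-gated cells among kept cells, among granule-gated cells, among granule-gated cells thinned to 2000 UMIs and among intact granule-gated cells, with 1 point for each library and 95% Wilson intervals as bars (counting error only). The En1/2 CKO libraries lie above both controls in the first 3, from 20.2% against 14.7% after thinning, and overlap with them among intact cells.

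Within the mitotic cells the genotype itself was visible in En2, and few other genes passed the test. UMIs were summed per library and compared with edgeR's quasi-likelihood test over 12632 genes, with p-values adjusted by Benjamini-Hochberg over all of them. En2 (chr5:28165694-28172166, plus strand, GRCm38), 1 of the 2 targeted genes, stood at 100.2 CPM and 143 CPM in the controls and at 23.3 CPM and 15.9 CPM in the En1/2 CKO (scaled by TMM, as are all values in this comparison). Both En1/2 CKO libraries were below both controls, a log2 difference of -2.61 (SE 0.27, adjusted p = 0.00447). Without control replicate 2 it was -2.36 and not called (adjusted p = 0.0562). En1 (chr1:120602418-120607992, plus strand) stood at 102 CPM and 188 CPM in the controls and at 69.6 CPM and 148 CPM in the En1/2 CKO. The groups overlapped, and the fitted log2 difference was -0.38 (SE 0.35, adjusted p = 1.00). Its sign turned when a library was left out, to 0.095 without control replicate 2 and 0.07 without En1/2 CKO replicate 1, while it was -1.02 without En1/2 CKO replicate 2. The libraries count the 3′ end of transcripts, and the labels do not say which part of either gene is deleted, so transcripts outside the deleted part do not check the deletion.

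In all, 5 genes were called at an adjusted p under 0.05 in the mitotic cells (0.0396% of those tested), all lower in the En1/2 CKO; 487 had an unadjusted p under 0.05 (3.86%). The count was 3 without control replicate 1, 29 without En1/2 CKO replicate 1 and 107 without En1/2 CKO replicate 2. Beside En2 they were the haemoglobin genes Hba-a1, Hba-a2 and Hbb-bt, and E030030I06Rik, which the naming rule leaves out for its low level. Hba-a1 stood at 697 CPM and 86.1 CPM in the controls and at 2.47 CPM and 0.599 CPM in the En1/2 CKO; most of the first value is the single haemoglobin-rich cell. Without that cell or without the haemoglobin genes, En2 was the 1 gene called. Hba-a1 and Hba-a2 are near-identical, so reads may be split between them. E030030I06Rik (chr10:22113050-22149270, minus strand) had 26 and 5 UMIs in the controls, against 3 and 4 UMIs in the much deeper En1/2 CKO, or 5.21 CPM and 5.19 CPM against 0.308 CPM and 0.2995 CPM. The fitted log2 difference was -4.03 (SE 0.60, adjusted p = 0.0460), and it kept that size, -4.03, without the haemoglobin-rich cell, with an unadjusted p of 1.76e-05 beside 1.82e-05, but an adjusted p of 0.106.

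The naming rule fills each direction to 5 genes by lowest p, and apart from En2 none of these 10 passed the test; not all are described. Among the higher ones, 2610027F03Rik came first, a long non-coding RNA gene (chr1:120621740-120690403, plus strand) that starts 13747 bases past the end of En1 on the same strand. It stood at 3.21 CPM and 7.27 CPM in the controls and at 26.5 CPM and 20.3 CPM in the En1/2 CKO, or 2.50 on the log2 scale (SE 0.39, adjusted p = 0.0534). S100a10, a member of the S100 protein family, stood at 9.42 CPM and 12.5 CPM against 41.0 CPM and 25.7 CPM (1.70 on the log2 scale, adjusted p = 0.177). Hist2h2ac, an H2A gene with near-identical copies, Rab15, a small GTPase, and Gm10260 had log2 fold changes of 1.64, 1.13 and 1.00. Both En1/2 CKO libraries were above both controls for each of these 5, a condition that 16.7% of all tested genes met.

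Among the lower ones, Tmem14c, a mitochondrial membrane protein of haem synthesis, stood at 66.3 CPM and 54.0 CPM in the controls and at 26.4 CPM and 21.5 CPM in the En1/2 CKO, or -1.36 on the log2 scale (SE 0.23, adjusted p = 0.0855). AC149090.1 stood at 153 CPM and 195 CPM against 41.7 CPM and 71.1 CPM. Ephb1, an ephrin receptor, stood at 32.9 CPM and 37.4 CPM against 14.9 CPM and 12.6 CPM. Both En1/2 CKO libraries were below both controls for these 3, as they were for 17.1% of all tested genes. DESeq2 called Tmem14c, AC149090.1, 2610027F03Rik, Hist2h2ac and Gm10260, and 10 genes in all.

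**Figure D5:**
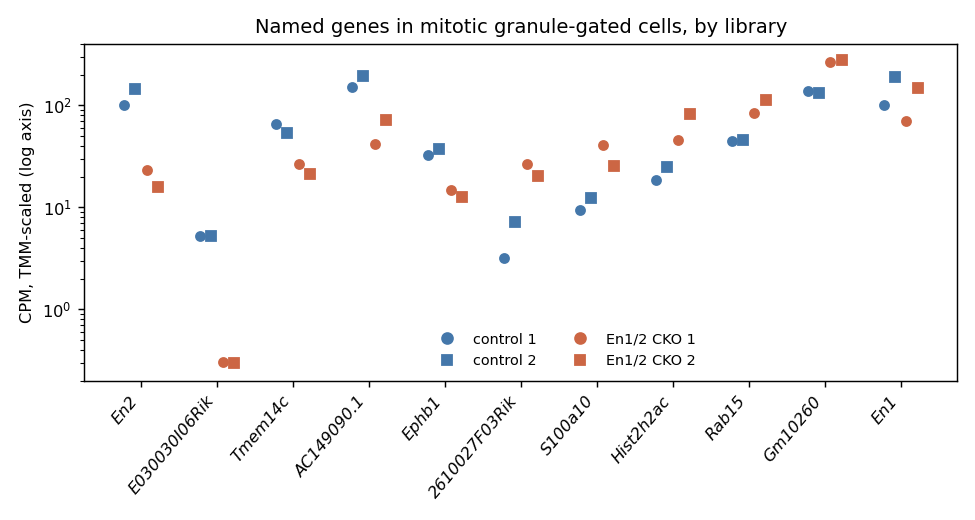
TMM-scaled CPM on a log axis in the mitotic granule-gated cells of each library for En1, En2 and the other genes described in this comparison, haemoglobins left out. En2 is at 100.2 CPM and 143 CPM in the controls and at 23.3 CPM and 15.9 CPM in the En1/2 CKO, and En1 overlaps between the groups.

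The mitotic machinery itself was not called in either direction, in cells chosen by a count of 6 mitotic transcripts. Levels of such genes were therefore set in part by the gate, which deeper cells pass more readily. Per 10000 UMIs the mitotic sum had medians of 21.7 and 24.3 in the controls, against 18.3 and 16.7 in the En1/2 CKO. The part of this in the values below was not tested. Of the 80 genes in the 5 mitotic lists, all 80 were tested, none was called, 3 had an unadjusted p under 0.05, and the log2 fold changes ran from -0.54 to 0.68 with a median of -0.05, beside -0.01 over all tested genes. The median standard error of these genes was 0.22. Gm10260, with a 2-fold difference and a like standard error, was not called (above), so the lack of calls does not bound these genes at 2-fold. In 22 of them (27.5%) both En1/2 CKO libraries were below both controls and in 12 (15%) above, beside 17.1% and 16.7% of all tested genes. The spindle list held 11 of the 22, among them Kif23 and Cep55, 2 cytokinesis proteins of the midbody. Kif23 stood at 176 CPM and 262 CPM in the controls and at 129 CPM and 152 CPM in the En1/2 CKO before TMM scaling, or -0.54 on the log2 scale (SE 0.24, unadjusted p = 0.0438, adjusted p = 1.00). Pttg1, the securin that holds separase inactive, had the largest positive value, 0.68 (SE 0.26, unadjusted p = 0.0239, adjusted p = 1.00). The gate genes, which chose the cells, ran from -0.39 for Cdc20 to 0.05 for Cenpa, as a description.

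In the other pathway lists no gene was called either; the haemoglobins are among the erythroid markers. Cdkn1a had the lowest p of the G1 list, at 9.33 CPM and 5.41 CPM in the controls, against 15.2 CPM and 14.98 CPM in the En1/2 CKO before TMM scaling, or 0.93 on the log2 scale (SE 0.32, adjusted p = 0.962). The S phase list had a median of -0.10 over 28 genes and no unadjusted p under 0.05. Of granule and rhombic lip factors, Atoh1 (a gate gene) had 0.57 (SE 0.25, unadjusted p = 0.0439), and Olig3 0.61, neither called. In the Notch list the ligands Dll1 and Jag1 had -1.05 (SE 0.29) and -0.84 (SE 0.31), with unadjusted p of 0.00351 and 0.0180 and adjusted p of 0.767 and 1.00. Dll1 stood at 23.3 CPM and 36.8 CPM in the controls and at 14.7 CPM and 11.1 CPM in the En1/2 CKO before TMM scaling. Lhx1, a marker of the GABAergic lineage, had -1.57 in the same cells, and its part in the Notch values was not tested. The Hedgehog, neuronal and dissociation stress lists had medians of -0.02, -0.07 and 0.15, and the p53 list 0.03, with no unadjusted p under 0.05 in any of the 4.

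Whether the effect of genotype differed between mitotic and other granule-gated cells was tested as an interaction with the library as a block. In the 2622 non-dividing granule-gated cells 6 of 10672 genes were called (0.0562%), and in the S phase cells 3 of 11995 (0.025%). En2 fell by 2.07 on the log2 scale in the non-dividing cells, and the difference of its effect in the mitotic cells was -0.53 (adjusted p = 0.922). For 2610027F03Rik the non-dividing cells showed 7.25 CPM and 11.8 CPM in the controls, against 90.1 CPM and 67.1 CPM in the En1/2 CKO (3.07 on the log2 scale, adjusted p = 0.00882), and the difference in the mitotic cells was -0.73 (adjusted p = 1.00). S100a10, not called in the mitotic cells, was called in the non-dividing cells at 2.52 (adjusted p = 0.0303), and the difference of -1.0 did not pass (adjusted p = 0.577). Against non-dividing cells, 8 of 11961 genes differed (0.0669%; 591 genes, or 4.94%, at an unadjusted p under 0.05), 7 with the higher change in the mitotic cells. They included the histone genes Hist1h2ap (difference 1.60, SE 0.24, adjusted p = 0.000141), Hist1h2ae and Hist1h1b, and Cdk1 (1.46, SE 0.32, adjusted p = 0.0475). After thinning to 2000 UMIs the difference for Cdk1 was 0.64 (adjusted p = 0.922), and without En1/2 CKO replicate 2 it was 2.29; Hist1h2ae was at 1.04 without that library. Cdk1 had 0.03 (SE 0.24) in the mitotic cells, and stood at 20.5 CPM and 17.6 CPM in the non-dividing cells of the controls against 4.55 CPM and 8.03 CPM in those of the En1/2 CKO. Non-dividing cells were defined by having no UMI of the 6 mitotic genes and under 3 of the replication genes. Both populations were thus chosen by counts of cell cycle transcripts. The part of that choice in the differences for Cdk1 and the histone genes was not tested. Against S phase cells, 0 of 12687 genes differed by edgeR's test, with 864 (6.81%) at an unadjusted p under 0.05. Differences in median UMIs per cell between the groups were larger in mitotic than in non-dividing cells (above). The part of depth in these effects was not tested beyond thinning.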

How the data were processed

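Cells were sorted for tdTomato from pooled embryonic cerebella, 2 control and 2 En1/2 CKO libraries, 10x 3′ chemistry. Per the submitters' processing notes the tools include Cell Ranger 5.0.0 and the build mm10; the authors deposited matrices of raw counts (UMIs per gene and barcode, not normalized). Gene names are those of the files, and 32158 of 32285 IDs were found in GENCODE M21 (GRCm38), which gave the coordinates. The members and gene lists were chosen with earlier results of these data known.

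UMIs were summed per library and population. edgeR 4.0.16 (TMM, filterByExpr, quasi-likelihood test, R 4.3.3) compared groups over all genes with Benjamini-Hochberg adjustment, and each fit used its own population. The interaction fit used both populations with the library as a block. Shares were compared by exact permutation (scipy 1.17.1). Named genes were those of the rule; 15 higher and 5 lower against other kept cells by the ratio in the least favourable library, at 50 CPM or more; and by genotype up to 10 called each way at a mean of 10 CPM or more with groups apart, without sex-linked, mitochondrial and haemoglobin genes, filled to 5 by lowest p. Of each list the 4 most abundant, of each marker list the 3 most abundant, could be named; other list genes were picked after their values were seen. Log2 ratios between populations added 1 CPM to each level. The fits were tested on simulated counts.

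Alternatives were DESeq2 1.42.0 and its size factors, no low-count filter, a replicate block, each library left out, intact cells, thinned cells, other gate thresholds and doublets removed (a simulated-neighbour score, 68, 124, 32 and 109 cells). The S phase difference and the fit without a haemoglobin-rich cell (100 or more such UMIs) were added after seeing the data. Results for 2 genes are not reported here.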

Additional observations from a re-analysis of the deposited data

Results flagged for a closer look

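For 8 genes the change with genotype in the mitotic cells differed from that in granule-gated non-dividing cells by edgeR's interaction test. The difference (mitotic minus non-dividing, log2) was 1.60 for Hist1h2ap, 1.67 for Hist1h2ae, 3.44 for Hbb-y, 1.01 for Ier5, 1.08 for Eml5, 1.46 for Cdk1, 1.03 for Hist1h1b and -1.88 for Cartpt, with adjusted p from 0.000141 to 0.0481. Leaving out 1 library moved 4 of them by over 1.5 times: Cartpt was -0.38 and Hbb-y 2.09 without control replicate 1, Hbb-y was 6.08 when control replicate 2 was left out, and without En1/2 CKO replicate 2 Hist1h2ae was 1.04 and Cdk1 2.29. Chosen after its values were seen, Ier5, an immediate early gene, stood at 201 CPM and 171 CPM in the mitotic cells of the controls and 153 CPM and 139 CPM in those of the En1/2 CKO, and at 144 CPM and 156 CPM against 74.2 CPM and 47.9 CPM in the non-dividing cells. None of the 8 was called within the mitotic cells alone. By median UMIs per cell, the mitotic cells were deeper in the En1/2 CKO and the non-dividing cells were not. Summed, the non-dividing cells held 2258159 and 1566854 UMIs in 794 and 625 cells of the controls. In the En1/2 CKO they held 1352366 and 3192322 UMIs in 318 and 885 cells, a higher mean per cell in both libraries. The part of depth in these differences was not tested beyond thinning. Both populations were chosen by counts of cell cycle transcripts, and the part of that choice in the differences for Cdk1 and the histone genes was not tested. After thinning to 2000 UMIs 3 genes were called, 2 of them among the 8, and among intact cells 62, of which 2 were among the 8. DESeq2 called 1, Hist1h2ap.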

How the results depend on the processing

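En2 was called in the mitotic cells under all alternatives but the replicate block (adjusted p = 0.0696) and leaving out control replicate 2 (log2 fold change -2.36, adjusted p = 0.0562). The 5 calls became 10 with DESeq2, 59 without the filter on low counts, 3 after thinning, 9 with doublets removed, 12 and 1 with a mitotic sum of at least 2 and 5, and 1 without the haemoglobin genes or the haemoglobin-rich cell. Leaving out a library gave 3 (control replicate 1), 6 (control replicate 2), 29 (En1/2 CKO replicate 1) and 107 calls (En1/2 CKO replicate 2). In non-dividing cells the 6 calls became 29 with DESeq2, 132 without the filter, 15 among intact cells and 16 to 71 with a library left out (the lowest without control replicate 2, the highest without En1/2 CKO replicate 1). The 8 differences against them became 5 with DESeq2 size factors, 1 with DESeq2, 15 without the filter, 62 among intact cells, 3 after thinning, 3 with doublets removed and 3 to 55 with a library left out (without En1/2 CKO replicate 2 and control replicate 2). The 0 differences against S phase cells became 10 to 208 with a library left out (without En1/2 CKO replicate 1 and control replicate 2). The cause was not tested; a group with 1 library left is assumed to vary like the other.

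En1 ranged from -1.02 (without En1/2 CKO replicate 2) to 0.095 (without control replicate 2) and was 0.07 without En1/2 CKO replicate 1. The difference in shares kept its sign under every alternative run. Among granule-gated cells the difference of 17.4 points ranged from 11.5 to 23.2 with a library left out and was 9.76 among intact cells.

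With the replicate number as a block, 4 genes were called in the mitotic cells, all haemoglobins, and 4 in non-dividing cells. The numbers are not stated to pair libraries, and deviations of same-numbered libraries correlated at -0.09 over 12632 genes.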
